A study of Homo sapiens with 30 samples.

Results

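The mRNAs described here encode the serine/arginine-rich (SR) splicing factors. The set was 10 genes of the 62703 gene identifiers in the count tables, namely SRSF1, SRSF2, SRSF3, SRSF4, SRSF5, SRSF6, SRSF7, SRSF9, SRSF10 and SRSF11, and it was chosen by gene name. Their binding by LARP6, a La-related protein best known as a binder of collagen mRNAs, was read from peaks whose centre lay inside a member gene on the same strand. Of 14334 peaks for full-length LARP6, 24 lay in members.

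The data came from iCLIP, in which ultraviolet light crosslinks protein to RNA and the RNA pulled down with the protein is sequenced, in U-87 MG cells, an established human glioblastoma line. In 5 lines, 60 ng/mL doxycycline for 24 h induced an N-terminally myc-tagged LARP6 variant from a lentiviral vector, and parental cells with the same doxycycline treatment and no variant were the control. The variants were full length (FL) and lacked the N-terminal disordered region (ΔNTR), the La-module that folds and binds RNA (ΔLa-module), both of these (ΔNTD) or the C-terminal region (ΔCTR). Each line had 3 iCLIP samples, of which the deposited peaks were pooled into 1 list per variant with parental peaks subtracted, and 1 input library of long RNA (PE150, 150 nt paired-end reads) with 25027075 to 28692476 counts in genes.

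All lines kept endogenous LARP6, at 51.6 to 75 CPM (counts scaled to library size), and the vector carried a codon-optimised sequence, so these counts do not measure the variants. The mesenchymal marker VIM was at 7039 to 8004 CPM. The glial marker GFAP (0 to 0.24 CPM) and the transcription factor gene SOX2 (0 to 0.0356 CPM) were at or near 0, and OLIG2 was at 1.46 to 2.54 CPM. A peak's score sums 3 replicates, was at least 3 in every list and was not scaled to depth. No spread between replicates could be had for any value below, and the 95% intervals cover counting error only. A gene without a peak in a list may have held weaker signal or a peak that the parental subtraction removed.

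SR proteins bind exonic enhancers in pre-mRNA through RNA recognition motifs and recruit the spliceosome through a domain rich in arginine and serine. Many of their own pre-mRNAs carry a poison exon, a short alternative exon with an early stop codon whose inclusion sends the transcript to nonsense-mediated decay, and SR proteins use such exons to limit their own levels. SR proteins are phosphorylated by the SRPK and CLK kinases, and several of them also act in mRNA export and translation.

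The sites that carried most of the signal were in SRSF5 and SRSF11. Each line below gives 29 nt around the centre of an FL peak in GRCh38, 5′ to 3′ on the sense strand, with runs of at least 5 pyrimidines in capitals. The first 4 are the member peaks that scored 10 or more in FL. The next 4 are the strongest FL site of SRSF3, SRSF2 and SRSF9 and, chosen after the letters were seen, the SRSF2 site with the longest pyrimidine run among FL sites in members.
SRSF5 intron 5 site (chr14:69769569-69769597, plus strand, FL score 31): cttggtcaCTCTTggttgggcctggttga
SRSF5 start site (chr14:69767131-69767159, plus strand, FL score 13): ctgctaagtgcgtcagttgtggagtggcg
SRSF11 first 3′UTR site (chr1:70251850-70251878, plus strand, FL score 18): tatgcaaagtaggcaactgTTTTCTTagt
SRSF11 second 3′UTR site (chr1:70251899-70251927, plus strand, FL score 10): CTTTTgtgcagtagaaacaaaagtaggct
SRSF3 3′UTR site (chr6:36602235-36602263, plus strand, FL score 3): gaatttgctttgaaCTTTTagttatgcac
SRSF2 3′UTR site (chr17:76735083-76735111, minus strand, FL score 7): catagtccatcgaagaagagTCCTTggaa
SRSF2 distal 3′UTR site (chr17:76734307-76734335, minus strand, FL score 3): atgataaatacaCCTTTTTTTCCCTCTTC
SRSF9 3′UTR site (chr12:120461970-120461998, minus strand, FL score 4): TCTTTaTTTTTTaggttaactgagctgct

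The strongest sites were not the most pyrimidine-rich. The longest run in the SRSF5 start window was 2 nt, in the SRSF5 intron 5 window 5 nt and in the distal SRSF2 window, at the minimum score, 17 nt. The 2 SRSF11 windows shared the 9 letters aaagtaggc, picked after these windows were seen. On the sense strand they occurred in 2 of 14333 FL windows of this length (0.014%), the same 2 windows from which they were picked, so nothing is read from this share. In the 31 nt around the peak centre, pyrimidines made up 51.9% (48.3 to 55.5%) of bases at member FL peaks and 52.5% at all FL peaks. This interval takes each base as independent, which bases of the same or overlapping windows are not, so it is too narrow. The values for members and all peaks were 51.1% and 52.8% in ΔNTR and 50.5% and 51.9% in ΔCTR. At FL peaks in members T made up 33.6% and C 18.3%, against 27.9% and 24.6% over the whole list. A run of at least 5 pyrimidines lay in 13 of 24 member FL windows (54.2%, 35.1 to 72.1%), against 55.0% of all FL windows.

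The first question was which SR factor mRNAs each variant bound. SRSF5 and SRSF11 together held 97 of the summed member score of 138 in FL (70.3%), and the other 8 members held 41. FL peaks were found in 7 of 10 members, ΔNTR peaks in 7 and ΔCTR peaks in 8. Of 11680 protein-coding genes expressed at 1 CPM or more, the shares with a peak were 38.6%, 39.4% and 41.1%, but the members are abundant, and among 1750 genes within the members' own range of CPM they were 79.4%, 80.4% and 84.2%. Against these the members' 70.0% (39.7 to 89.2%) in FL and ΔNTR and 80.0% (49.0 to 94.3%) in ΔCTR differed by less than their intervals. The ΔLa-module list of 636 peaks and the ΔNTD list of 291 peaks held no member peak (0 to 3.69 each). In these lists 3.69% and 1.98% of the 11680 genes had a peak, and 6.8% and 3.37% of the 1750 of like CPM, so that a list of 10 genes with none is not set apart from other genes.

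**Figure D1:**
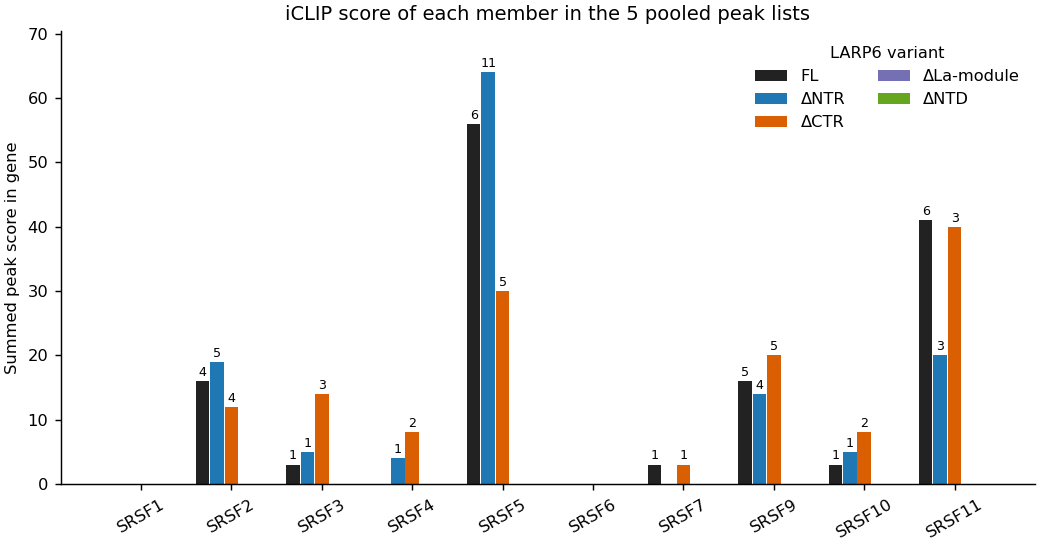
Summed peak score (vertical axis) of each SR factor gene in the 5 pooled peak lists, 1 bar per LARP6 variant, with the number of peaks above each bar. SRSF5 reached 56, 64 and 30 and SRSF11 41, 20 and 40 in FL, ΔNTR and ΔCTR, SRSF1 and SRSF6 had no peak in any list, and no bar is seen for ΔLa-module or ΔNTD.

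The number of member peaks was alike in the 3 lists that held any. FL had 24 (15.4 to 35.7), ΔNTR 26 (17.0 to 38.1) and ΔCTR 25 (16.2 to 36.9). In the same order, the whole lists held 14334, 17180 and 15870 peaks, of which members made up 0.167%, 0.151% and 0.158%. Their summed scores were 138, 131 and 135. In FL 17 of 24 member peaks had the minimum score of 3 (70.8%, against 53.7% of all FL peaks). The order was the other way in ΔNTR, with 12 of 26 (46.2%, against 54.5%), and in ΔCTR, with 11 of 25 (44%, against 51.1%). No intervals were computed for these shares of few peaks, so no difference from the whole lists is read from them. With scores above 3 only, 7, 14 and 14 member peaks remained.

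Relative to the mRNA level, SRSF5 and SRSF11 stood high and most other members low. SRSF5 encodes an SR protein known to respond to serum and insulin signalling. It had a summed FL score of 56 in 6 peaks, 14.7 per 1000 PE150 counts of the FL line, which placed it at the 95.4th percentile of the 1750 genes of like CPM. SRSF11 (p54), a larger SR-related protein, had a summed score of 41 in 6 peaks, 11.4 per 1000 counts and the 93.5th percentile.

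SRSF9, which encodes a small SR protein close to SRSF1, had a summed FL score of 16 in 5 peaks and 4.48 per 1000 counts, at the 79.1st percentile. SRSF2 (SC35) had 16 in 4 peaks and 2.55 per 1000 counts, at the 61.8th percentile. SRSF7, SRSF10 and SRSF3 each had 1 FL peak of score 3, at 0.777, 0.624 and 0.403 per 1000 counts. SRSF10 is known as a repressor of splicing when dephosphorylated, and SRSF3 and SRSF7 are export adaptors.

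SRSF1, the founding member of the family, and SRSF6 had no peak in any list, although their mRNAs were present at medians of 22 and 36.9 RPKM over the 6 inputs (reads scaled to transcript length and library size). SRSF4 had none in FL, 1 in ΔNTR (score 4) and 2 in ΔCTR (summed score 8). The median FL score per 1000 counts was 0.7 over the 10 members and 1.85 over the genes of like CPM. With scores above 3 only, the members' median was 0. Summed over genes before division, members had 3.1 and genes of like CPM 3.51. Pseudogenes named after a member are annotated for 6 of the 10 genes, 5 of them for SRSF3, 2 for SRSF6 and 1 each for SRSF1, SRSF2, SRSF9 and SRSF10. Reads that fit both copies can be lost from peaks and counts, and their part in these values was not tested.

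**Figure D2:**
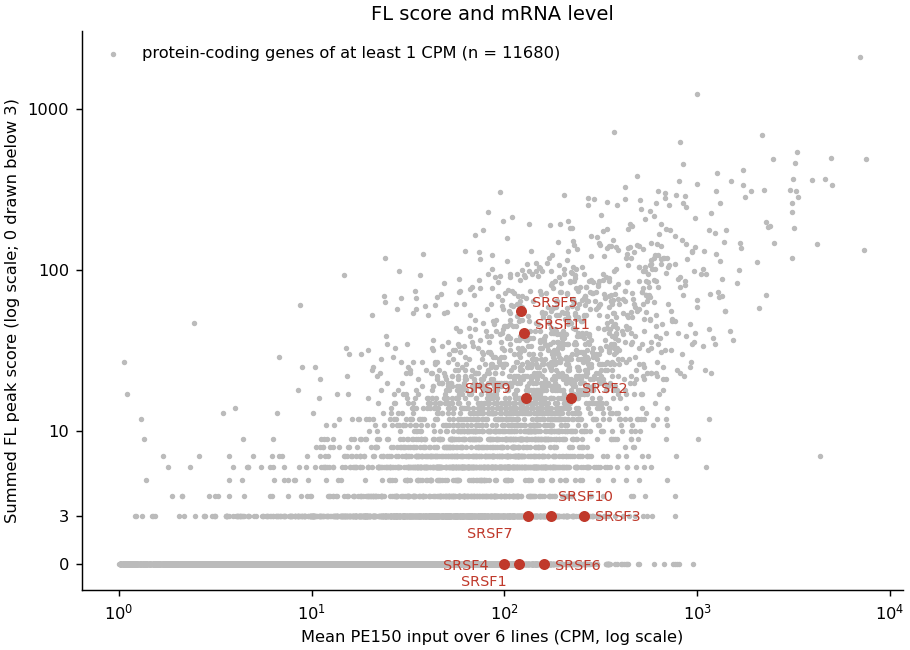
Summed FL peak score of each gene (vertical axis, log scale, 0 drawn below 3) against its mean PE150 input over 6 lines (horizontal axis, CPM, log scale), with 11680 protein-coding genes in grey and the 10 SR factor genes in red. SRSF5 (56) and SRSF11 (41) lie above most genes of the same CPM, SRSF2 and SRSF9 (16 each) lie lower, and SRSF1, SRSF4 and SRSF6 at 0.

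The next question was where on these mRNAs the peaks lay. Each peak was placed by its centre on the gene's main transcript (MANE Select). In FL, 14 of 24 member peaks lay in a 3′UTR (58.3%, 38.8 to 75.5%), 5 in coding sequence (20.8%, 9.24 to 40.5%) and 3 in a 5′UTR (12.5%, 4.34 to 31%). Of all FL peaks in protein-coding genes, 48.6% lay in a 3′UTR, 36.8% in coding sequence and 4.38% in a 5′UTR. The 3′UTR held 14 of 26 member peaks in ΔNTR (53.8%, against 50.7% of all) and 13 of 25 in ΔCTR (52.0%, against 51.7%). The remaining 2 FL, 4 ΔNTR and 6 ΔCTR member peaks lay outside the main transcript's exons, at shares of 8.33% (2.32 to 25.8%), 15.4% (6.15 to 33.5%) and 24.0% (11.5 to 43.4%). Over all peaks in protein-coding genes these shares were 10.2%, 7.93% and 7.9%. In ΔCTR the interval of the members lay above the share of all peaks, but 2 of the 6 peaks, both described below, are in doubt as such. With the SRSF5 peak at the start counted as 5′UTR and the peak inside NRAV left out, 4 of 24 remained (16.7%, 6.68 to 35.9%), an interval that holds the share of all peaks. This choice was made after the data were seen.

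No member peak lay in a poison exon candidate in any list. A candidate was an internal exon of an annotated nonsense-mediated decay transcript that lies wholly within an intron of the main transcript, and 17 such exons of 62 to 456 nt were found in 8 members, with none in SRSF1 and SRSF5. Genome-wide, 6 FL, 3 ΔNTR and 3 ΔCTR peaks lay in candidates. Peaks in such exons were thus rare in these lists as a whole, and their absence from so few member peaks sets the members apart from nothing. The definition leaves out exons of decay transcripts that run into a main exon. The SRSF5 intron 5 site and a ΔCTR peak of score 5 in SRSF9, both described below, lie in exons of that kind.

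The highest peak in any member lay in intron 5 of SRSF5, at chr14:69769559-69769608, with an FL score of 31. Only 3.01% of all FL peaks scored as high or higher, and among 1418 FL peaks outside main exons 25 did. Its centre was 332 nt into the 1215 nt intron. The annotation has a 134 nt alternative last exon there, at chr14:69769511-69769644, whose protein-coding transcript ends in the intron and has the site in its 3′UTR, and a shorter form of it of 84 nt in another transcript. The site also lies in a 1030 nt exon of a nonsense-mediated decay transcript, which starts at the same position and runs into the next exon, and in 2 transcripts that retain the intron. The deposited peaks cannot tell these transcripts apart.

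The same site held peaks of score 26 and 4 in ΔNTR and of 6 and 9 in ΔCTR. Its summed score was therefore 31 in FL, 30 in ΔNTR and 15 in ΔCTR. All FL and ΔNTR member peaks outside main exons were in this intron, with a summed score of 34 in 2 FL peaks and 36 in 4 ΔNTR peaks.

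SRSF5 also carried a peak at its very start. The FL peak at chr14:69767135-69767155 scored 13, and its centre lay 3 nt past the first base of the main transcript. Of 608 FL peaks in a 5′UTR, 55 scored at least as high. The matching ΔNTR peak scored 3 and the ΔCTR peak 9. Further along the SRSF5 5′UTR, FL had a peak of score 3 centred 29 nt past the start. ΔNTR had one of score 7 at 54 nt, just outside the 50 nt used below. The centre of the ΔCTR peak fell 1 nt before the main start, which counted it among the peaks outside main exons, and it lies in the 5′UTR of longer SRSF5 transcripts. Peaks centred within 50 nt of the main start were found in SRSF2 and SRSF5 in FL, in SRSF5 in ΔNTR, and in SRSF5 and SRSF7 in ΔCTR. In FL, ΔNTR and ΔCTR such peaks were found in 1.98%, 2.12% and 1.46% of the 11680 genes and in 4.23%, 4.06% and 2.91% of the 1750 genes of like CPM. The 50 nt distance was set after the SRSF5 peak was seen, so the count of members is a description.

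The SRSF11 signal was packed into a short stretch of its 2250 nt 3′UTR. FL peaks of score 18, 10 and 4 were centred 1062, 1111 and 1140 nt past the stop codon, and 3 peaks of score 3 lay 666 to 913 nt past it. ΔNTR had a peak of 13 at 1066 nt, one of 4 at 1111 nt and one of 3 at 230 nt. ΔCTR had peaks of 26 and 11 at 1064 and 1123 nt and a peak of 3 in coding sequence. The ΔCTR peak of 26 was matched or exceeded by 3.99% of that list.

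**Figure D3:**
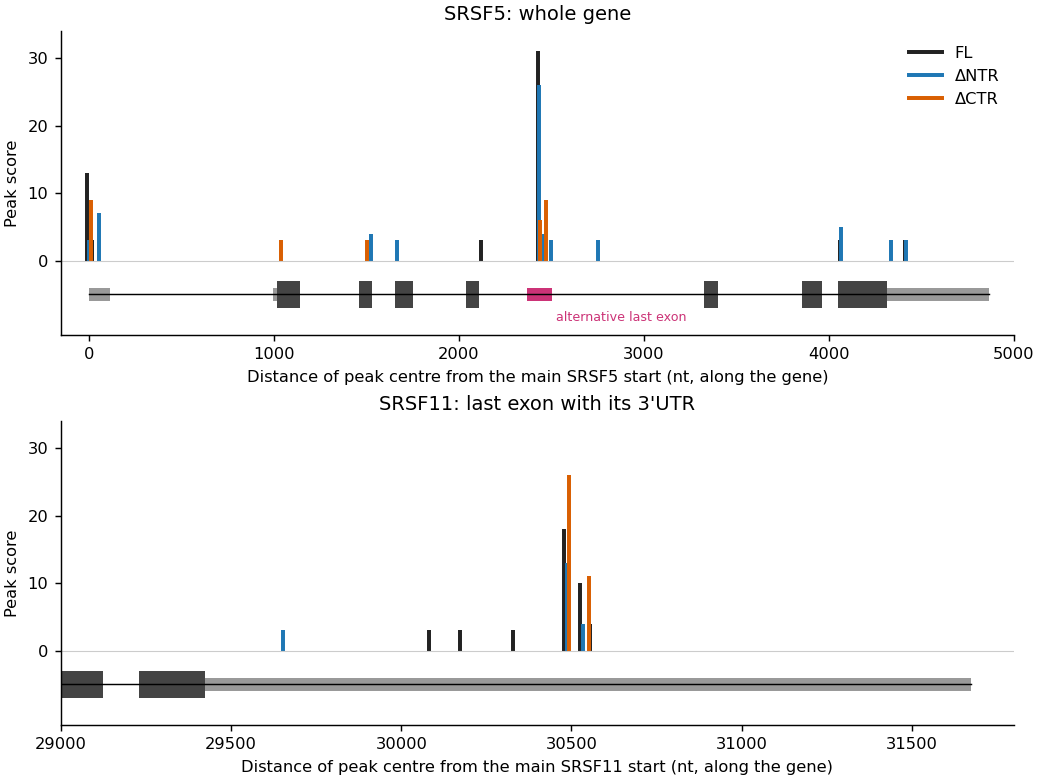
Peaks of SRSF5 (top, whole gene) and SRSF11 (bottom, end of the gene), with the score of each peak (vertical axis) at the distance of its centre from the start of the main transcript (horizontal axis, nt along the gene) for FL, ΔNTR and ΔCTR, drawn slightly side by side. Below each axis the main transcript is shown with coding exons tall and dark and untranslated exons low and grey. The tallest SRSF5 lines (31 and 26) stand over the alternative last exon in intron 5, and the SRSF11 lines of 10 or more stand within the 3′UTR.

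The other members had scattered, weak peaks. SRSF2 peaks of score 3 to 7 were spread over its 1054 nt 3′UTR, 3 in FL from 72 to 848 nt past the stop codon, 5 in ΔNTR from 238 to 780 nt and 4 in ΔCTR from 141 to 859 nt. SRSF9 peaks scored 3 to 5 and lay in coding sequence and in its 350 nt 3′UTR, apart from 2 ΔCTR peaks outside main exons. Of these, a peak of score 5 straddled the 3′ splice site of intron 2, and a peak of score 4 lay inside the long non-coding RNA gene NRAV and belongs to SRSF9 only through a long read-through transcript. SRSF10 peaks scored 3 to 5 and lay 4036 to 6372 nt past the stop codon of its 6798 nt 3′UTR.

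SRSF3 peaks lay 176 to 263 nt past its stop codon, at scores of 3 in FL, 5 in ΔNTR, and 5 and 6 in ΔCTR, with a ΔCTR peak of 3 in coding sequence. The SRSF4 peaks were at 302 nt (ΔNTR) and 322 nt (ΔCTR) past the stop codon, and a further ΔCTR peak of score 4 lay 11715 nt into its 21128 nt first intron. The SRSF7 peaks, both of score 3, were in coding sequence in FL and in the 5′UTR in ΔCTR.

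The study set each deletion against FL to ask which regions LARP6 needs at its sites. Over all members the summed score was 0.949 times that of FL in ΔNTR (0.742 to 1.21) and 0.978 times in ΔCTR (0.766 to 1.25). The whole lists gave 0.904 (0.896 to 0.912) and 1.16 (1.15 to 1.16), both within the members' intervals. Both ratios changed when the strongest genes were left out. The ΔCTR ratio was 1.28 without SRSF5 and 1.59 without SRSF5 and SRSF11, both above the interval of the full set. The ΔNTR ratio was 0.817 and 1.15, both within the interval of the full set. The genes left out were those with the highest FL scores, a choice that can by itself raise the ratio of the rest. No interval was computed for the remaining members, so no gain of score in them is read from these ratios. Removal of SRSF5 and SRSF11 together was chosen after the data were seen.

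Among the 3 lists with member peaks, SRSF11 had its lowest score in ΔNTR and SRSF5 in ΔCTR. SRSF11 scored 41 in FL and 20 in ΔNTR, a ratio of 0.488 (0.271 to 0.852), and was at 40 in ΔCTR, a ratio of 0.976 (0.615 to 1.55). SRSF5 scored 56 in FL and 30 in ΔCTR, a ratio of 0.536 (0.332 to 0.849), and was at 64 in ΔNTR, a ratio of 1.14 (0.786 to 1.67). The intervals of 0.488 and 0.536 lay below the ratio of the whole list, and the other pair of intervals contained 1. SRSF3 had 3 in FL and 14 in ΔCTR, a ratio of 4.67 (1.3 to 25.3) against the minimum score. Both comparisons share the FL list, and none of these differences could be set against replicates.

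As a share of each list's total and corrected for the input, changes were taken for genes whose scores in FL and the deletion added up to 50 or more, which only SRSF5 and SRSF11 did among members. Neither passed 2-fold. In ΔNTR the log2 change was -0.79 for SRSF11 and 0.41 for SRSF5, and 12.6% of 777 genes were at least 2-fold lower and 7.72% at least 2-fold higher. In ΔCTR it was -0.88 for SRSF5 and -0.25 for SRSF11, with 5.47% of 877 genes at least 2-fold lower and 5.59% higher. Without the correction for input, the value for SRSF5 in ΔCTR was -1.09, past 2-fold, as were 5.97% of 905 genes in that direction.

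**Figure D4:**
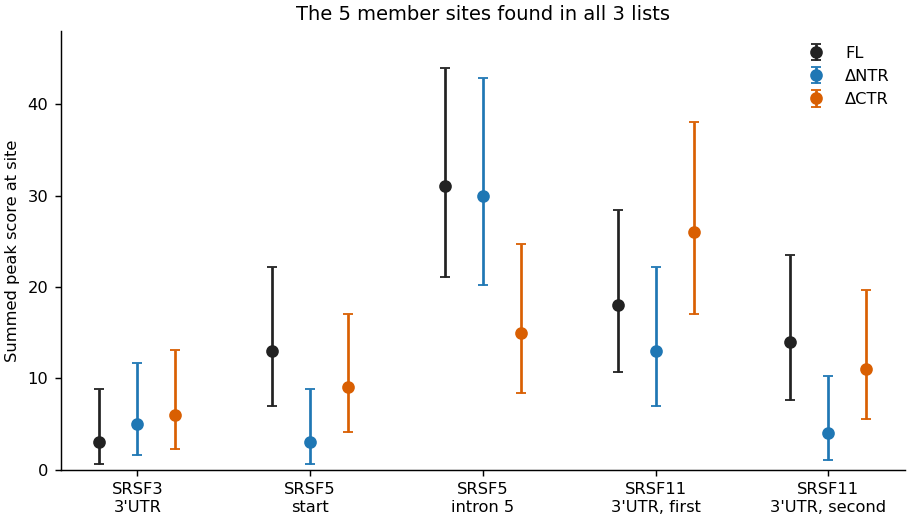
Summed peak score (vertical axis) at the 5 member sites present in all of FL, ΔNTR and ΔCTR, with exact Poisson 95% intervals for counting error. The SRSF5 intron 5 site is lowest in ΔCTR (31, 30 and 15 in FL, ΔNTR and ΔCTR), and the SRSF5 start site (13, 3 and 9) and the second SRSF11 site (14, 4 and 11) are lowest in ΔNTR. The SRSF3 site is lowest in FL (3, 5 and 6).

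By site and among the same 3 lists, the lowest score was in ΔNTR for the SRSF5 start and both SRSF11 sites, in ΔCTR for the SRSF5 intron 5 site and in FL for the SRSF3 site. The SRSF5 start site scored 13 in FL and 3 in ΔNTR, a ratio of 0.231 (0.0422 to 0.84). Other SRSF5 5′UTR peaks just downstream, of 3 in FL and 7 in ΔNTR, are not part of this site. The ratio therefore depends on where the site ends. The intron 5 site scored 31 in FL and 30 in ΔNTR, a ratio of 0.968 (0.566 to 1.65). In ΔCTR the intron 5 site was at 15, a ratio of 0.484 (0.243 to 0.924), and the start site at 9, a ratio of 0.692 (0.261 to 1.75). The first SRSF11 3′UTR site scored 18, 13 and 26 in FL, ΔNTR and ΔCTR. The intervals of its ratios, 0.722 (0.325 to 1.56) and 1.44 (0.762 to 2.8), contained 1. The second SRSF11 site scored 14, 4 and 11, a ratio of 0.286 (0.0685 to 0.91) in ΔNTR, an interval that holds the whole-list ratio of 0.904. The SRSF3 site scored 3, 5 and 6, with ratios of 1.67 (0.324 to 10.7) and 2.0 (0.427 to 12.4). The SRSF5 ratios in ΔNTR for the 2 sites have intervals that overlap between 0.566 and 0.84, and the difference between the sites was not tested.

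Most member sites belonged to a single list. Peaks of the 3 lists merged into 55 member sites, of which 43 were in 1 list (78.2%, against 76.8% of all 34120 sites), 7 in 2 and 5 in all 3 (9.09%, 3.95 to 19.6%, against 9.78%). ΔNTR peaks overlapped 8 of 24 member FL peaks (33.3%, 18.0 to 53.3%, against 35.3% of all FL peaks). ΔCTR peaks overlapped 7 of 24 (29.2%, 14.9 to 49.2%, against 37.9%). All 4 member FL peaks with a score of at least 10 were overlapped by both, as were 88.2% and 93.2% of all FL peaks of that score. Of the 17 at a score of 3, ΔNTR peaks overlapped 4 (23.5%, against 17.0% of all FL peaks of that score) and ΔCTR peaks 2 (11.8%, against 18.1%). Of the 3 at scores of 4 to 9, ΔNTR peaks overlapped 0 (against 43.5% of all) and ΔCTR peaks 1 (against 47.7%). No ΔLa-module or ΔNTD peak overlapped a member FL peak, against 1.08% and 0.502% of all FL peaks.

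The input libraries were used to ask whether the mRNA levels themselves differed between the lines. Per length of the main transcript, SRSF2 (113 to 122 RPKM over the 6 lines) and SRSF9 (110 to 117) were highest and overlapped. They were followed by SRSF5 (74.4 to 91.0), SRSF3 (58.7 to 63.2), SRSF7 (49.6 to 58.6), SRSF4 (41.1 to 47.3), SRSF6 (35.2 to 39.2) and SRSF11 (30.3 to 33.4), which did not overlap with their neighbours. SRSF10 (20.1 to 24.9) and SRSF1 (19.5 to 26) were lowest and overlapped. The 2 members with the strongest LARP6 signal were thus in the upper and lower part of this order. It depends on the length of the main transcript, and shorter forms of an mRNA were not considered. In CPM, which is not divided by length, SRSF10 had a median of 175, above SRSF11 (128) and SRSF5 (121). SRSF2 and SRSF9 overlap genes on the other strand (MFSD11 and GATC), and without strand their counts in parental cells fell from 6149 to 4447 and from 3400 to 1009. SRSF1 and SRSF6 each overlap a further protein-coding gene annotated on their own strand, and reads that fit both are left out of the counts. Their part in the levels of SRSF1 and SRSF6 was not tested.

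**Figure D5:**
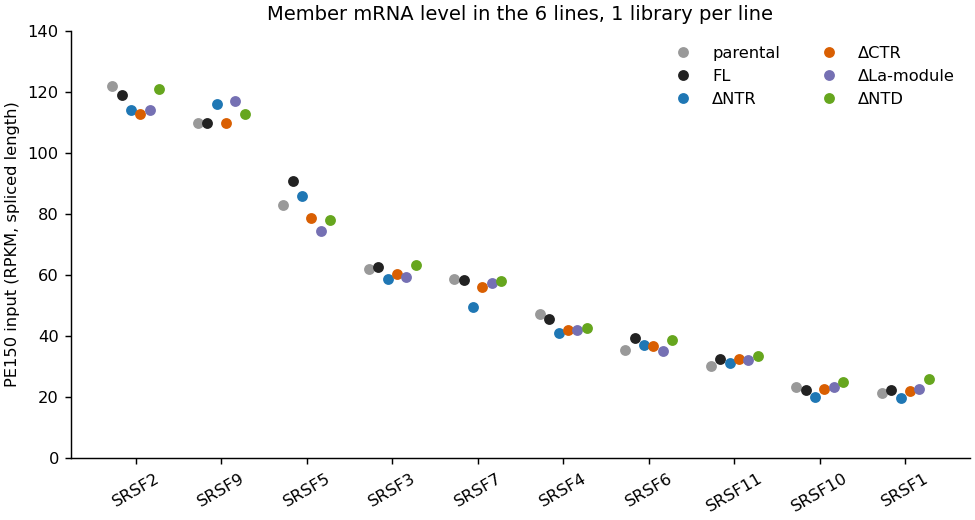
PE150 input of each SR factor mRNA (vertical axis, RPKM over the spliced length of the main transcript), with 1 point per line and 1 library per line, ordered by the median. The 6 points of a gene lie close together, from 113 to 122 for SRSF2 and from 19.5 to 26 for SRSF1.

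No member differed 2-fold from parental cells in any line. Among 14057 genes the share at least 2-fold higher was 0.0569% for FL, 0.0711% for ΔCTR, 0.263% for ΔNTD, 0.334% for ΔLa-module and 0.704% for ΔNTR, and 0 to 0.0783% were at least 2-fold lower (0.0498% in ΔNTR and 0.00711% in ΔCTR). The median log2 fold change of the members was 0.01 for FL, 0.03 for ΔNTD, -0.08 for ΔNTR, -0.04 for ΔCTR and -0.02 for ΔLa-module, beside medians over all genes of -0.01 to 0. The widest values were SRSF7 in ΔNTR (117 CPM against 138 in parental cells, log2 fold change -0.24) and SRSF1 in ΔNTD (139 against 114 CPM, 0.28). SRSF5 was at 136 CPM in FL, 129 in ΔNTR and 118 in ΔCTR, so its input moved with its score in ΔCTR, by less than the score did. SRSF11 was at 129, 123 and 129 CPM. In the single-end libraries of small RNA, members had 2 to 88 counts, too few to compare.

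Other genes of SR protein biology were read from a list of 21, of which 20 were expressed at 1 CPM or more. FL peaks lay in 11 of the 21, ΔNTR peaks in 10 and ΔCTR peaks in 12. Of the 11680 genes of at least 1 CPM, 38.6%, 39.4% and 41.1% had a peak. Of 4520 genes of at least 50 CPM, 69.7%, 70.9% and 73.9% did. The listed genes span a wide range of levels, so neither background is matched to them. A single ΔLa-module peak, of score 3, lay in SRRM1, and ΔNTD had none, where 3.69% and 1.98% of the 11680 genes had a peak. The listed genes had a median FL score per 1000 counts of 0.448. It was 0 over the genes of at least 1 CPM and 1.62 over those of at least 50 CPM. The highest was SON, a large nuclear speckle protein, with scores of 85, 45 and 177 in FL, ΔNTR and ΔCTR. TRA2B, which binds purine-rich enhancers, had 30, 12 and 34. SRRM2, a scaffold of nuclear speckles, had 27, 22 and 14. The import receptor TNPO3, which carries SR proteins into the nucleus, had 18, 10 and 13, and of the 6 SRPK and CLK kinases, CLK1 had the highest FL score, 7. None of the 20 differed 2-fold from parental cells in any line.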

How the data were processed

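Groups were taken from the labels. According to the study's methods, iCLIP reads were demultiplexed by the authors with Ultraplex, trimmed, cleared of rRNA and tRNA reads with Bowtie 2, aligned with STAR to GRCh38 (GENCODE V42) and deduplicated with UMI-tools, and Clippy called peaks per replicate. The deposited score is the authors' sum over replicates after merging and parental subtraction with bedtools 2.30.0. The deposited input counts per gene are from Trim Galore 0.6.10 and STAR 2.7.10b, and the reverse-strand column was used for PE150 because it held the larger total.

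Here peaks were placed on the same build with GENCODE v44, where 62625 of 62703 gene identifiers matched. A shared nucleotide on the same strand counted as overlap, and merged member peaks are called sites. Score shares used a pseudocount of 1 on the score. Input counts were scaled by TMM factors (edgeR 4.0.16) and compared as log2(CPM + 1) for genes of at least 1 CPM on average, a scale that understates the change of low genes. With pooled lists and 1 input library per line no p-value was computed, and a 2-fold change was used to name differences. Intervals of 95% are exact Poisson for peak numbers, Wilson for shares and exact binomial for ratios of scores. Input counts carry no molecular identifiers, so intervals are minimum errors. The input script was tested on simulated counts. All members were named, with the strongest FL peak of each and every peak of score 10 or more. The genes, lists and alternatives were chosen with earlier results of these data known. Single iCLIP replicates and parental peaks were not analysed here.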

Additional observations from a re-analysis of the deposited data

How the results depend on the processing

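Of 85 alternative values for 33 results, 66 stayed within the interval of the reported value or, for counts and the median score, within 1.5 times the reported value, 19 moved and none reversed. Those that stayed include every input call and every ΔLa-module and ΔNTD member peak count and overlap, all at 0. The tally therefore says little about how firm the other results are. With scores above 3 only, members held 7 FL, 14 ΔNTR and 14 ΔCTR peaks, and their median FL score per 1000 counts was 0. Of those 7 FL peaks, ΔCTR peaks overlapped 71.4%. When at least 50% of both peaks had to overlap, ΔCTR peaks overlapped 12.5% of all 24 member FL peaks. Neither share was computed over all FL peaks at the same setting, so both only describe these few peaks. The ΔCTR to FL ratio was 1.28 without SRSF5 and 1.59 without SRSF5 and SRSF11, genes left out for their high FL scores, which can by itself raise the ratio. Without division by input, 1 member (SRSF5) changed at least 2-fold in ΔCTR, lower, as did 5.97% of 905 genes. The share of all genes with a peak depended on the level required: for genes of at least 50 CPM and for genes within the members' CPM range it was 69.7% and 79.4% for FL, 70.9% and 80.4% for ΔNTR, and 73.9% and 84.2% for ΔCTR. For ΔLa-module it was 7.88% and 6.8%, for ΔNTD 4.16% and 3.37%. The CPM range, the removal of SRSF5 and SRSF11 together and the recount of ΔCTR peaks outside main exons were chosen after seeing the data. Input calls stayed at 0 under DESeq2 size factors, total counts, a pseudocount of 0.1, unstranded counts and no filter. No paired analysis was possible because the processed peak lists used here merge the replicates and each line had 1 input library. Leaving out a replicate was therefore not possible either.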
